A study of Mus musculus with 9 samples.

Results

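Whole testes of mice with a gene trap in *Kpna6* were compared with WT testes by RNAseq. *Kpna6* encodes importin α7. The comparison used 6 of the 9 libraries of the study, the 3 labelled *Kpna6*-/- and the 3 labelled WT, and every gene with enough reads was tested. Genes on chromosome 4, where *Kpna6* lies, and on chromosome 6 were counted apart from the rest of the genome. All mice were 15 weeks old and of the C57Bl6/N strain, to which both mutant lines had been backcrossed for 10 generations. In the *Kpna6*-/- line, a gene trap cassette sits in intron 1 of *Kpna6* in every cell. According to the study, germ cells of these testes still make full-length importin α7 from an alternative first exon downstream of the trap, so the line is not a model of germ cells without the protein. The remaining 3 libraries came from *Kpna6*ΔIBB/ΔIBB testes, in which exon 2 is replaced by a resistance cassette and a shortened protein without the importin β binding domain is made. Their values are given beside the others where they help to place a library or a gene. The labels number the replicates and name the mouse as the source, and the P-values cover only the spread between these samples.

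Importin α proteins are adaptors of nuclear import: they bind the nuclear localization signal of a cargo protein and link it to importin β, which carries the complex through the nuclear pore. The testis makes several of them at different stages of sperm development. Sertoli cells are the somatic cells that enclose and feed the germ cells, and Leydig cells between the tubules make testosterone. After meiosis, spermatids replace their histones with transition proteins and then with protamines. RNA of a whole testis comes mostly from germ cells, and in such bulk samples fewer cells of a type and less RNA per cell cannot be told apart.

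The 6 libraries held between 27725693 and 31629697 estimated counts. Markers of Sertoli cells, Leydig cells and the stages of germ cells had enough reads to be tested, as the label of whole testis requires. The library labelled WT replicate 1 stood apart near *Kpna6*. Over 10 genes within 2 Mb of *Kpna6* that differed between the other WT libraries and the *Kpna6*ΔIBB/ΔIBB libraries, WT replicate 1 lay at a median of 0.51 of the way to the *Kpna6*ΔIBB/ΔIBB level (quartiles 0.36 and 0.54). Over 1492 genes of the whole genome chosen in the same way this median was 0.17, and over 68 genes of chromosome 4 farther than 10 Mb from *Kpna6* it was 0.15. What makes this library differ was not tested, and values without it are given beside the results that it changes most.

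The targeted gene was read first. *Kpna6* (chromosome 4, 129643980 to 129672767 in GRCm38, minus strand) was at 201, 325 and 334 CPM (read counts corrected for the depth of each library) in WT replicates 1 to 3. It was at 247, 249 and 262 CPM in *Kpna6*-/- testes and at 81.2, 85.3 and 81.8 CPM in *Kpna6*ΔIBB/ΔIBB testes. WT and *Kpna6*-/- values overlapped because WT replicate 1 was the lowest of the 6, and the total did not pass the test (log2 fold change -0.18, SE 0.14, adjusted P-value 0.586, quasi-likelihood test of edgeR). Without WT replicate 1 the log2 fold change was -0.38 and the adjusted P-value was 0.000345.

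The transcripts of *Kpna6* moved apart from each other. Kpna6-202 begins at the outermost first exon (chromosome 4, 129672677 to 129672767), upstream of the intron that carries the trap. It was at 16.9, 23.4 and 22.3 TPM (a scale that corrects for transcript length) in WT and at 11.9, 11.3 and 12 TPM in *Kpna6*-/- testes. The *Kpna6*-/- libraries lay under every WT library, with a ratio of means of 0.562. The exact permutation test gave a P-value of 0.1, the smallest that 3 against 3 samples allow. Kpna6-201 begins 10197 bases farther downstream (first exon 129662400 to 129662479), in the first intron of Kpna6-202. It was at 75.4, 132 and 148 TPM in WT and at 119, 122 and 126 TPM in *Kpna6*-/- testes, and the groups overlapped (ratio 1.03, exact permutation P-value 1). This overlap rested on WT replicate 1: without it the ratio was 0.873, and the other WT libraries lay above every *Kpna6*-/- library. The ratio of Kpna6-202 without it was 0.513. In *Kpna6*ΔIBB/ΔIBB testes Kpna6-201 was at 11.7, 14.9 and 13 TPM, while Kpna6-202 was at 15.2, 15.3 and 14.5 TPM. Kpna6-201 thus made up 89, 89.2 and 89.6% of the *Kpna6* TPM in *Kpna6*-/- testes and 76.7, 81.3 and 84.1% in WT testes, without overlap. Both transcripts have 14 exons, but Kpna6-202 is 5710 bases long and Kpna6-201 2195 bases. They therefore differ outside their short first exons too, and their estimates do not measure the use of the first exons alone. By RT-PCR, the study detected no transcript joining the regular first exon to a later one in *Kpna6*-/- testis. Its sequencing found only the shorter transcript there. How the estimate of Kpna6-202 relates to those results was not tested. An estimate of 1 transcript among several that share sequence rests on the reads that tell them apart, and the share of such reads is unknown here.

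In the test of 18681 genes, 299 passed an adjusted P-value threshold of 0.05 (1.60%). Of these, 166 were higher (0.889% of the genes tested) and 133 lower (0.712%) in *Kpna6*-/- testes. For the same comparison the study reported far fewer genes with its own tool, sleuth, so the counts rest on different tests. Most differences were small: 50 of the 299 exceeded 2-fold, and the median log2 fold change of all genes was 0.00. In all 299 the WT and *Kpna6*-/- libraries did not overlap, so a lack of overlap adds nothing to a call. Outside chromosomes 4 and 6, 241 of 16641 genes were called (1.45%), 135 higher and 106 lower. On chromosome 4, 28 of 1136 genes were called (2.46%), 16 higher and 12 lower, and on chromosome 6 30 of 904 (3.32%), 15 in each direction. Leaving out WT replicate 1 raised the number to 518 of 18892 genes (2.74%), 354 higher and 164 lower, of which 264 were among the 299. Leaving out any other library lowered it, to between 92 and 180, and of the 52 called genes that met the naming rule, 7 were called under every alternative. With WT replicate 1 left out it came to 42 of 1148 genes on chromosome 4, 39 of 918 on chromosome 6 and 437 of 16826 elsewhere.

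The calls on chromosome 4 lay close to *Kpna6*. Within 2 Mb of the *Kpna6* start, 9 of 51 genes were called (17.6%), 4 higher and 5 lower, and within 10 Mb 18 of 301 genes (5.98%). Farther away on the chromosome it was 10 of 835 genes (1.20%), beside 1.60% of all genes. Genes within 1 Mb were called most often, 9 of 43 (20.9%). From 1 to 2 Mb none of 7 was called. It was 6 of 122 from 2 to 5 Mb (4.92%) and 3 of 128 from 5 to 10 Mb (2.34%). Without WT replicate 1 the counts were 10 of 51 genes within 2 Mb, 22 of 304 within 10 Mb and 20 of 844 beyond (2.37%). That fit called 2.74% of all genes.

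**Figure D1:**
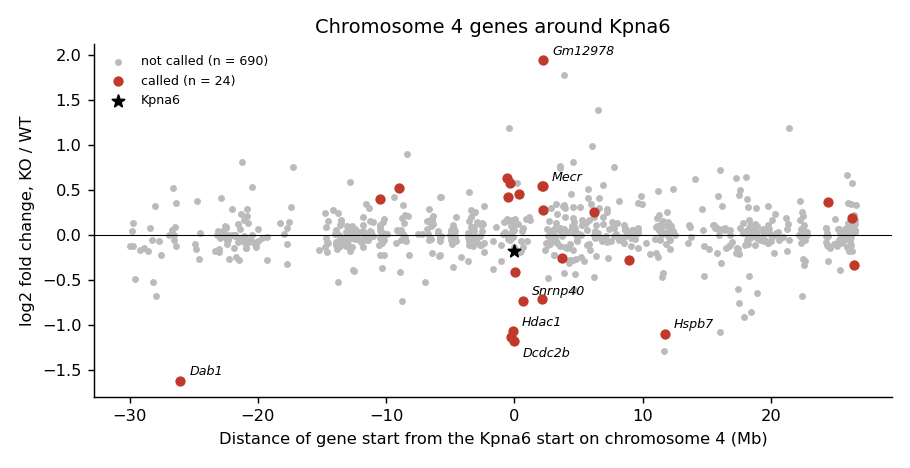
log2 fold change of *Kpna6*-/- over WT testes for the 714 genes tested within 30 Mb of *Kpna6*, against the distance of each gene's start from that of *Kpna6* in Mb; the 24 genes with an adjusted P-value below 0.05 are drawn apart from the 690 others. Of the 9 called genes within 2 Mb, 4 lie above 0 and 5 below, and *Kpna6* itself is not among them.

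*Hdac1*, which encodes a class I histone deacetylase, was among the genes that were lower. It was at 151, 221 and 214 CPM in WT and at 95.3, 91.2 and 93.2 CPM in *Kpna6*-/- testes, a fold change of 2.09 downwards (log2 fold change -1.07, SE 0.11, adjusted P-value 0.000357). Without WT replicate 1 the log2 fold change was -1.22. The groups did not overlap, WT replicate 1 lay between them, and the *Kpna6*ΔIBB/ΔIBB libraries were at 94.1, 94.7 and 97.7 CPM. *Gm10093*, a processed pseudogene on chromosome 17 (78491582 to 78493025) that is 99.4% identical to the *Hdac1* transcript over 1444 bases, moved in the opposite direction. Its counts were 303, 9 and 9 in WT, 552, 654 and 593 in *Kpna6*-/- and 491, 610 and 703 in *Kpna6*ΔIBB/ΔIBB testes. WT replicate 1 again held an intermediate value, and the difference of the pseudogene did not pass the test (log2 fold change 2.52, adjusted P-value 0.0777). Reads of the gene and the copy are hard to tell apart, and their sum was 161, 221 and 214 CPM in WT and 115, 112 and 115 CPM in *Kpna6*-/- testes, a log2 fold change of -0.80 (adjusted P-value 0.000875). When all genes that share at least 100 near-identical bases with *Hdac1* were summed, the log2 fold change was -0.04 and the call was lost (adjusted P-value 0.438).

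Close to *Kpna6*, *Dcdc2b*, a gene of the doublecortin domain family, was at 7.28, 10.9 and 12 CPM in WT and at 4.85, 4.51 and 3.99 CPM in *Kpna6*-/- testes (log2 fold change -1.17, SE 0.17, adjusted P-value 0.00393; -1.36 without WT replicate 1). *Zbtb8b*, which encodes a zinc finger protein, was lower too, with 3.56, 3.51 and 4.77 CPM in WT and 1.53, 1.65 and 2.21 CPM in *Kpna6*-/- testes (-1.13, adjusted P-value 0.0142). Both genes were separated between the groups, and in both the *Kpna6*ΔIBB/ΔIBB libraries were also under WT, at means of 3.2 and 2.14 CPM. The neighbouring gene *Zbtb8os*, whose product is the archease cofactor of the tRNA ligase, was higher: 34.7, 28.2 and 26.8 CPM in WT, 45.5, 43.3 and 44.9 CPM in *Kpna6*-/- and 40.4, 41.3 and 42.7 CPM in *Kpna6*ΔIBB/ΔIBB testes (0.57, adjusted P-value 0.00418). *Yars*, the cytosolic tyrosyl-tRNA synthetase, and *Hpca*, a neuronal calcium sensor, were also higher in *Kpna6*-/- testes, by log2 fold changes of 0.42 and 0.63 (adjusted P-values 0.00985 and 0.0408). Another of the 9 called genes within 2 Mb, *Tmem39b*, a membrane protein gene added to complete the count after its values were seen, fell by 0.41 (adjusted P-value 0.00418).

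On the other side of *Kpna6*, called genes included some whose *Kpna6*ΔIBB/ΔIBB libraries were not on the same side of WT; that difference between the lines was not tested. *Snrnp40*, a component of the U5 small nuclear ribonucleoprotein of the spliceosome, was at 21.1, 22.6 and 23.2 CPM in WT and at 13.6, 13.6 and 13.2 CPM in *Kpna6*-/- testes (log2 fold change -0.73, SE 0.07, adjusted P-value 0.000261). The *Kpna6*ΔIBB/ΔIBB libraries, at 22.6, 22 and 22.4 CPM, were in the WT range. Its transcript Snrnp40-202, which has 6 exons against 10 in Snrnp40-201, was at 3.01, 3.34 and 3.5 TPM in WT and 0.442, 0.316 and 0.23 TPM in *Kpna6*-/- testes, a ratio of means of 0.1, and the ratio of Snrnp40-201 was 0.697. *Col16a1*, which encodes a fibril-associated collagen, was at 192, 194 and 211 CPM in WT and higher at 285, 261 and 273 CPM in *Kpna6*-/- testes (0.46, adjusted P-value 0.000394), whereas the *Kpna6*ΔIBB/ΔIBB libraries were at 164, 165 and 165 CPM. *Mecr*, a reductase of mitochondrial fatty acid synthesis, went from 11.6, 11.8 and 12.3 CPM to 18.7, 17.6 and 15.6 CPM (0.54, adjusted P-value 0.00738). In TPM its means were closer, 29.6 in WT and 33.5 in *Kpna6*-/- testes. Its call was lost with length-scaled TPM counts, under limma and without *Kpna6*-/- replicate 1. As in all 299 called genes, the groups did not overlap in *Snrnp40*, *Col16a1* and *Mecr*, and WT replicate 1 was the lowest WT library in each of them.

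Near *Mecr*, which lies 2.17 Mb from *Kpna6*, further genes were called at 2.17 to 2.25 Mb. *Ptpru*, a receptor tyrosine phosphatase, fell by 0.71 on the log2 scale and *Tmem200b* rose by 0.55 (adjusted P-values 0.0294 and 0.043). The transcriptional coactivator gene *Cited4*, within 10 Mb on the other side, rose by 0.52 (adjusted P-value 0.0439). Beyond 10 Mb, *Dab1*, which encodes the adaptor of reelin signalling, was at 3.54, 3.72 and 3.64 CPM in WT and 1.27, 1.14 and 1.15 CPM in *Kpna6*-/- testes (log2 fold change -1.62, SE 0.17, adjusted P-value 0.000428), and the *Kpna6*ΔIBB/ΔIBB libraries were lower still at 0.842, 0.629 and 0.787 CPM. *Hspb7*, a small heat shock protein gene, was called with a wide spread: 28.6, 31.1 and 29.6 CPM in WT and 13.9, 19.8 and 7.79 CPM in *Kpna6*-/- testes (-1.10, adjusted P-value 0.0244). *Gm12978*, a pseudogene 99.6% identical to a stretch of *Pik3cb*, rose by 1.94, while the sum of both changed by a log2 of 0.02.

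The called genes of chromosome 6 were gathered in a stretch near its end. Between 120 and 140 Mb, 19 of 189 genes were called (10.1%), 12 higher and 7 lower, and in the rest of the chromosome 11 of 715 (1.54%), 3 higher and 8 lower. Of 296 windows of 10 Mb across the genome, 8 held at least 5 called genes. The 4 fullest were the window from 120 to 130 Mb of chromosome 6 with 12 of 140 genes, that from 130 to 140 Mb of chromosome 4 with 10 of 166, its neighbour from 120 to 130 Mb with 8 of 135, and that from 130 to 140 Mb of chromosome 6 with 7 of 49. The median window held 1 called gene. Without WT replicate 1, 19 of 195 genes in the stretch of chromosome 6 were called and 20 of 723 in the rest of the chromosome. That fit called 2.74% of all genes. The limits of 120 and 140 Mb were set after earlier results of these data were seen.

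**Figure D2:**
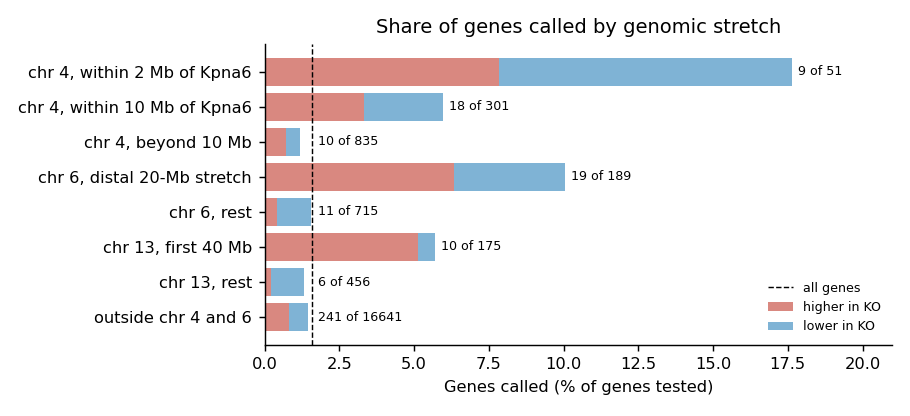
Share of tested genes with an adjusted P-value below 0.05 between *Kpna6*-/- and WT testes, in percent, for stretches of the genome. The share is 17.6% within 2 Mb of *Kpna6*, 10.1% between 120 and 140 Mb of chromosome 6 and 1.45% outside chromosomes 4 and 6.

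In that stretch of chromosome 6, *Grin2b*, which encodes a subunit of the NMDA receptor, had the smallest adjusted P-value. It was at 16.6, 18.9 and 17.7 CPM in WT and at 43.1, 43.4 and 38.6 CPM in *Kpna6*-/- testes (log2 fold change 1.23, SE 0.07, adjusted P-value 2.79e-06). In *Kpna6*ΔIBB/ΔIBB testes it was at 3.97, 3.91 and 3.28 CPM, on the other side of WT, and the 3 groups did not overlap. *Gprc5a*, an orphan G protein-coupled receptor gene, was low in WT, at 0.202, 0.231 and 0.109 CPM, and at 2.54, 2.37 and 1.77 CPM in *Kpna6*-/- testes, 11.9-fold higher (adjusted P-value 0.000142). The *Kpna6*ΔIBB/ΔIBB libraries, at 0.153, 0.252 and 0.189 CPM, were at the WT level. *Plekhg6* had the same pattern at low levels, with 0.809, 0.362 and 0.692 CPM in WT, 2.72, 2.43 and 1.81 CPM in *Kpna6*-/- and 0.728, 0.566 and 0.724 CPM in *Kpna6*ΔIBB/ΔIBB testes (adjusted P-value 0.00602).

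Genes of the natural killer cell receptor complex lie in the same stretch and moved in different directions. *Klrb1* was at 23, 16.1 and 17 CPM in WT and at 7.86, 9.02 and 7.65 CPM in *Kpna6*-/- testes (log2 fold change -1.19, SE 0.13, adjusted P-value 0.000604). *Klrb1a* was higher, at 0.432, 0.263 and 0.441 CPM in WT and 1.56, 1.46 and 0.998 CPM in *Kpna6*-/- testes (1.81, adjusted P-value 0.0157). *Klra5* had no counts in any WT or *Kpna6*ΔIBB/ΔIBB library and 0.507, 0.844 and 0.665 CPM in *Kpna6*-/- libraries (adjusted P-value 0.00303). These receptors have close relatives in the same complex, and whether the counting moved reads between them was not tested. The call of *Klrb1* held under all 18 alternatives and that of *Klra5* under 15, with near-identical genes summed among them. That of *Klrb1a* held under 10 and was lost with near-identical genes summed. *Ltbr*, the lymphotoxin β receptor gene, rose by 0.57 and the orphan receptor gene *Gpr162* fell by 0.54 (adjusted P-values 0.00324 and 0.00247). *Clstn3*, a synaptic adhesion gene, fell by 0.46 (adjusted P-value 0.0491), a call that held under 3 of 18 alternatives and was lost on leaving out any library.

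Elsewhere on chromosome 6, *Asb4*, which encodes an ankyrin repeat protein of ubiquitin ligases, was at 49.9, 61.3 and 60.9 CPM in WT and at 25.4, 33.2 and 26.9 CPM in *Kpna6*-/- testes (log2 fold change -1.01, SE 0.10, adjusted P-value 0.000319). *Gata2*, a zinc finger transcription factor gene, fell by 0.46 (adjusted P-value 0.00954). *Ldhb*, the heart-type lactate dehydrogenase subunit, lies past the stretch and was at 74.8, 66.9 and 65.6 CPM in WT and 96, 95.7 and 90.1 CPM in *Kpna6*-/- testes (0.44, adjusted P-value 0.00166). None of these pairs of groups overlapped.

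**Figure D3:**
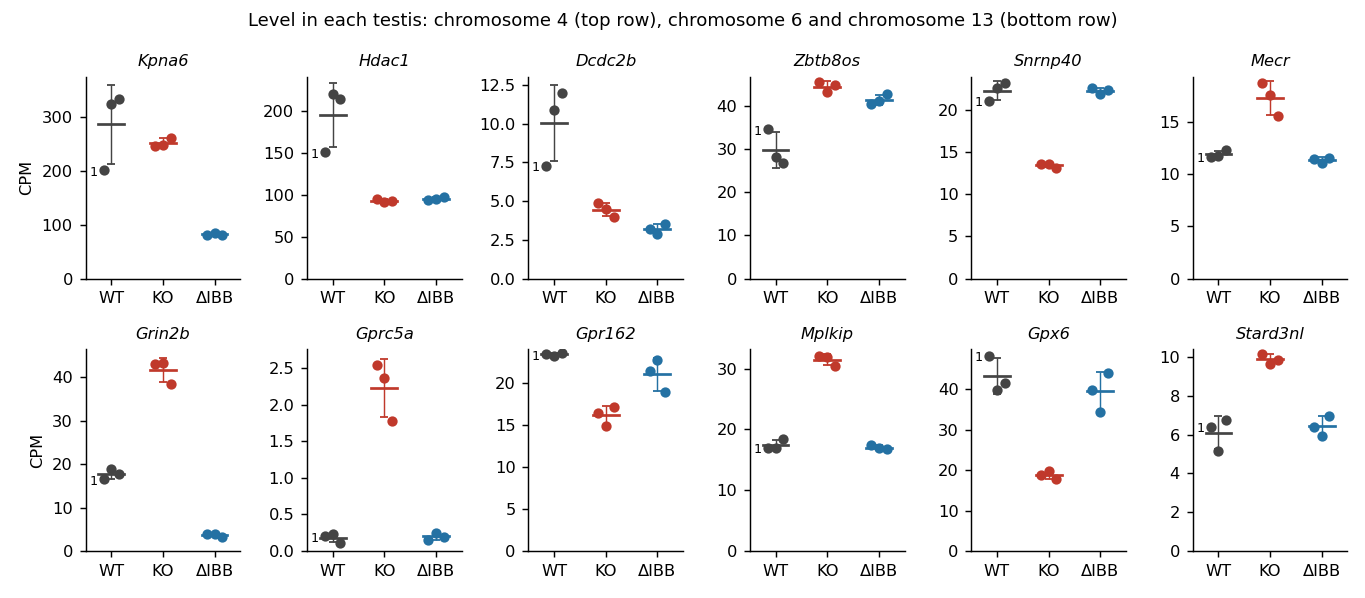
CPM in each of the 9 libraries, on linear axes from 0, for genes of chromosomes 4, 6 and 13; each point is a library, KO stands for *Kpna6*-/-, bars are the mean ± SD, and WT replicate 1 is marked 1. *Grin2b* is at 38.6 to 43.4 CPM in *Kpna6*-/- testes, 16.6 to 18.9 CPM in WT and 3.28 to 3.97 CPM in *Kpna6*ΔIBB/ΔIBB testes, and WT replicate 1 lies between the other WT libraries and the mutants for *Hdac1*.

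*Gapdh*, which encodes the glycolytic enzyme glyceraldehyde-3-phosphate dehydrogenase, lies in the same stretch of chromosome 6 (125161715 to 125166467) and appeared lower, at 84.4, 80 and 79.7 CPM in WT and 52, 55.3 and 55.1 CPM in *Kpna6*-/- testes (log2 fold change -0.59, SE 0.05, adjusted P-value 7.37e-05). The gene with the smallest adjusted P-value of the genome was its processed pseudogene *Gm13394* on the minus strand of chromosome 2 (28933610 to 28934609). It had 2, 0 and 5 counts in WT, 577, 567 and 434 counts in *Kpna6*-/- and 5, 0 and 8 counts in *Kpna6*ΔIBB/ΔIBB testes (adjusted P-value 4e-08). The transcripts of both, in the sequences of GENCODE M21 (GRCm38), differ at 1 base over 1000 bases. The base is shown because, within this match, reads of the pair can be told apart only there:
Gapdh-203: agggtggagccaaaAgggtcatcatctccg
Gm13394-201: agggtggagccaaaCgggtcatcatctccg
The capital letter marks the base that differs, A586C in positions of Gapdh-203 counted from 1 at its 5′ end, in codon 116 of the coding sequence. Another processed copy, *Gm7336* on chromosome 7 (51746647 to 51747878), was also higher, at 2.19, 4.62 and 3.62 CPM in WT and 12.1, 11.5 and 13.3 CPM in *Kpna6*-/- testes. The sum of *Gapdh*, *Gm13394* and *Gm7336* was 86.6, 84.6 and 83.5 CPM in WT and 85, 85.2 and 84.5 CPM in *Kpna6*-/- testes, 84.9 ± 1.59 against 84.9 ± 0.369 (SD, n = 3 each). The sums of both groups overlapped. Which base the *Kpna6*-/- reads carry at this position was not examined, since reads were not analysed here.

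Other gene and copy pairs also moved in opposite directions. *Gm7334*, a chromosome 17 copy identical to the *Btg3* transcript over 756 bases, was at 7.44, 7.64 and 13.4 CPM in WT and at 0, 0.917 and 0.312 CPM in *Kpna6*-/- testes (adjusted P-value 0.000429). *Btg3*, an antiproliferative gene, was at a log2 fold change of 0.93 (adjusted P-value 0.0755), and their sum was 21.7, 24.3 and 19.4 CPM in WT and 22.1, 26.7 and 23 CPM in *Kpna6*-/- testes. *Gm12663* was at 1.12, 0.632 and 0.45 CPM in WT and had no counts in *Kpna6*-/- libraries, while *Ublcp1*, a phosphatase gene that it matches at 99.4%, rose by 0.51 (adjusted P-value 0.0337) and their sum by a log2 of 0.45. In all, 31 of the 299 called genes had a near-identical partner over more than a share of 0.5 of a transcript, and 81 over at least 100 bases. *Gm28814*, *Gm20827*, *Gm20851* and *Gm29165*, which belong to families of Y-chromosome copies with 132 to 134 near-identical partners, were lower, and their calls were lost when the partners were summed.

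**Figure D4:**
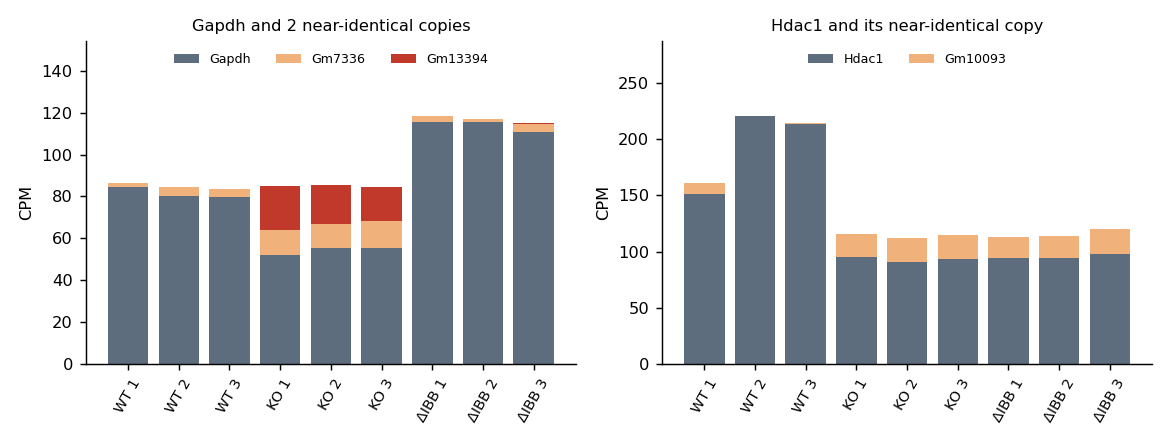
CPM in each library, as stacked bars, for *Gapdh* with its copies *Gm7336* and *Gm13394* and for *Hdac1* with its copy *Gm10093*; KO stands for *Kpna6*-/-, and the full height of a bar is the sum. The sum of *Gapdh* and its copies is 83.5 to 86.6 CPM in WT and 84.5 to 85.2 CPM in *Kpna6*-/- testes, whereas *Gapdh* alone is 79.7 to 84.4 CPM and 52 to 55.3 CPM.

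Outside chromosomes 4 and 6, the start of chromosome 13 held a group of called genes, a stretch chosen after its values were seen. In its first 40 Mb, 10 of 175 genes were called (5.71%), 9 higher and 1 lower, against 6 of 456 in the rest of the chromosome (1.32%). *Mplkip*, mutated in a form of trichothiodystrophy, was at 17, 16.9 and 18.4 CPM in WT and 32.1, 31.9 and 30.4 CPM in *Kpna6*-/- testes (log2 fold change 0.85, SE 0.06, adjusted P-value 3.4e-05). The *Kpna6*ΔIBB/ΔIBB libraries, at 17.4, 16.9 and 16.8 CPM, were close to WT. *Gpx6*, a glutathione peroxidase gene, was the gene of the stretch that was lower, at 48.3, 39.9 and 41.7 CPM in WT and 18.8, 19.7 and 17.8 CPM in *Kpna6*-/- testes (-1.21, adjusted P-value 7.83e-06). *Stard3nl*, a cholesterol-binding endosomal protein gene, rose by 0.70 and *Hfe*, a regulator of iron uptake, by 0.54 (adjusted P-values 0.00891 and 0.00288). With WT replicate 1 left out, 12 of 180 genes of the stretch were called, in a fit that called 2.74% of all genes.

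Among the genes of the remaining chromosomes with the greatest changes, *Serpina1d*, a serine protease inhibitor gene, was at 0.472, 0.782 and 0.463 CPM in WT and 2.11, 2.39 and 2.32 CPM in *Kpna6*-/- testes (log2 fold change 1.96, adjusted P-value 0.00191). It has 5 near-identical partners, of which *Serpina1c* was at -0.84 (adjusted P-value 0.327), and when they were summed the log2 fold change was 0.55 and the call was lost (adjusted P-value 0.0676). *Cyp4f17*, of the cytochrome P450 family, was at 0.675, 0.56 and 0.473 CPM in WT and 1.74, 1.95 and 2.11 CPM in *Kpna6*-/- testes (1.75, adjusted P-value 0.00335). The groups did not overlap in either gene. *Gm17042* and *Gm14756*, both pseudogenes, rose by 2.57 and 2.18 from WT means of 0.128 and 0.149 CPM. *Scara3*, a scavenger receptor gene, and *Prelp*, which encodes a proteoglycan of connective tissue, were chosen after their values were seen. *Scara3* was at 6.98, 8 and 8.23 CPM in WT and 23.9, 22.1 and 24.5 CPM in *Kpna6*-/- testes (1.60, SE 0.09, adjusted P-value 1.64e-06), and *Prelp* at 8.5, 9.88 and 9.03 CPM and 18.3, 17.4 and 18.6 CPM (0.98, adjusted P-value 7.98e-05).

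Markers of Sertoli cells held the most calls among the cell type lists. All 14 had a log2 fold change above 0, with a median log2 fold change of 0.25 beside 0.00 for all genes, and 3 passed the test, all higher (21.4%, beside 0.889% of all genes). *Inha*, the α subunit of inhibin by which Sertoli cells restrain follicle-stimulating hormone, was at 88.8, 67.8 and 67 CPM in WT and 125, 106 and 112 CPM in *Kpna6*-/- testes (log2 fold change 0.62, adjusted P-value 0.00643). *Aard* was at 129, 124 and 127 CPM in WT and 158, 157 and 159 CPM in *Kpna6*-/- testes (0.32, adjusted P-value 0.00151). *Clu*, which encodes the secreted chaperone clusterin, was at 774, 703 and 713 CPM in WT and 859, 903 and 837 CPM in *Kpna6*-/- testes (0.25, adjusted P-value 0.0155). The groups did not overlap in any of these genes. Summed over the list, the level was 1266, 1151 and 1151 CPM in WT, 1437, 1464 and 1387 CPM in *Kpna6*-/- and 2023, 1862 and 1730 CPM in *Kpna6*ΔIBB/ΔIBB testes. Without WT replicate 1, 6 of the markers were called higher, with *Trf*, *Amh* and *Gata4* in addition, and the median was 0.31. That fit called 354 of 18892 genes higher. By histology, the study counted fewer Sertoli cells per tubule in adult *Kpna6*-/- testes than in WT. How the higher marker levels relate to that count was not tested.

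**Figure D5:**
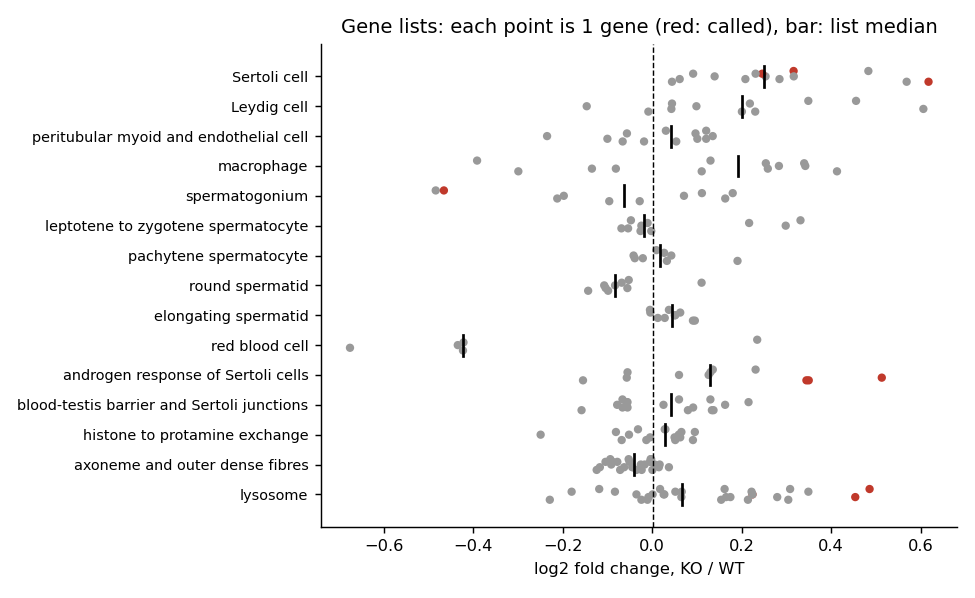
log2 fold changes of *Kpna6*-/- (KO) over WT testes for the members of 15 gene lists, each point a gene and each bar the median of a list, with called genes in red. The Sertoli list has a median of 0.25 with all 14 genes above 0, and the round spermatid list a median of -0.08 with 1 of 9 genes above 0.

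Of 11 genes on the list of the androgen response of Sertoli cells, 3 were higher (27.3%, beside 0.889% of all genes) and none lower, with a median of 0.13. *Eppin*, a protease inhibitor found on sperm, was at 21.7, 20 and 23.3 CPM in WT and 31.2, 31 and 30.6 CPM in *Kpna6*-/- testes (log2 fold change 0.51, adjusted P-value 0.00209). *Tubb3*, a β-tubulin gene, and *Vim*, the intermediate filament gene of Sertoli cells, rose by 0.35 and 0.34 (adjusted P-values 0.0365 and 0.0373). *Rhox5*, a homeobox gene that responds to androgen, was at a log2 fold change of 0.23 and did not pass the test. Of the 6 genes that the study chose for real-time PCR in whole testis, *Clu* passed and *Wt1*, *Gata1*, *Cldn3*, *Cldn11* and *Rhox5* did not. The study's PCR reported no significant difference in *Kpna6*-/- testes for any of these genes, *Clu* among them. Since the study chose them for these mouse lines they are not independent evidence. *Gata1*, a Sertoli transcription factor gene, had 0.32 with an adjusted P-value of 0.0908, and none of the 16 genes of the blood-testis barrier passed (median 0.04).

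Further genes were chosen after their values were seen. *Amhr2*, the receptor of anti-Müllerian hormone, was at 167, 166 and 155 CPM in WT and 229, 218 and 211 CPM in *Kpna6*-/- testes (log2 fold change 0.43, adjusted P-value 0.000489). *Cst9*, a cystatin, was at 100, 83.7 and 85.9 CPM in WT and 138, 144 and 129 CPM in *Kpna6*-/- testes (0.61, adjusted P-value 0.000604). *Gas6*, the ligand of receptors for the uptake of dying cells, was at 74.1, 64.4 and 63.1 CPM and 99.1, 90.1 and 101 CPM (0.52, adjusted P-value 0.0016). In these genes no WT library reached the lowest *Kpna6*-/- library, and the *Kpna6*ΔIBB/ΔIBB means were higher still, at 288, 156 and 115 CPM.

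Of the other somatic cells, no marker of Leydig cells (11 tested, median 0.20), of peritubular and endothelial cells (12, median 0.04) or of macrophages (12, median 0.19) passed the test of edgeR. With 1.60% of all genes called, lists of this size would often hold no call. Leydig genes varied between the WT libraries. *Star*, which brings cholesterol into mitochondria for steroid synthesis, was at 71.1, 16.9 and 56.3 CPM in WT, and *Hsd3b6*, a steroid dehydrogenase gene, at 39.5, 5.37 and 36.4 CPM, so WT replicate 2 was low for both. Without WT replicate 1, *Nr5a1*, *Insl3* and *Lhcgr* of the Leydig list and *Lyz2* of the macrophage list were called higher, in a fit that called 354 of 18892 genes higher. *Svs5*, a protein of seminal vesicle fluid, rose by 0.97 (adjusted P-value 0.0208), from a low WT mean of 2.36 CPM to 4.64 CPM. Of the 3 tested seminal vesicle genes, 2 lay above 0 and 1 below, from -0.98 to 1.88. Their summed level, of which *Svs5* was the greater part, was 3.09 to 3.58 CPM in WT and 5.03 to 6.58 CPM in *Kpna6*-/- testes. None of 5 red blood cell genes passed (median -0.42), and 1 of 7 epididymis genes had enough reads to be tested and was not called.

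Of the germ cell markers, 1 was called, 1 of 10 on the spermatogonial list, beside 1.60% of all genes. At that share, lists of this size would often hold no call, so a lack of calls says little about germ cells. None of 10 leptotene to zygotene, 8 pachytene, 9 round spermatid and 10 elongating spermatid markers was called by edgeR, with medians of -0.02, 0.02, -0.08 and 0.04. Among spermatogonial markers, *Gfra1*, the receptor of GDNF, which maintains spermatogonial stem cells, was lower, at 12.8, 13.4 and 13.7 CPM in WT and 10.2, 8.08 and 10.7 CPM in *Kpna6*-/- testes (log2 fold change -0.47, adjusted P-value 0.0476), and the other 9 did not pass. The call of *Gfra1* held under 4 of 18 alternatives, and was lost on leaving out any library other than WT replicate 1. Of 16 genes of the exchange of histones for protamines none was called. *Tnp1*, *Tnp2*, *Prm1* and *Prm2* were at log2 fold changes of 0.09, 0.10, 0.06 and 0.05, and *Rfx2*, a transcription factor gene of spermatids, at 0.03. *Brwd1*, a bromodomain gene of spermatid chromatin, was at 29.7, 28.8 and 31 CPM in WT and 26.3, 24.2 and 24.9 CPM in *Kpna6*-/- testes, which did not overlap but missed the threshold (-0.25, adjusted P-value 0.0672). Of 24 genes of the axoneme and outer dense fibres none was called, although 19 lay below 0 (median -0.04), and without WT replicate 1 *Dnah1* was called lower.

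Of the nuclear import machinery, none of the 6 importin α genes passed (log2 fold changes of -0.18 to 0.06, median -0.05), and none of 22 genes of importin β receptors, exportins and Ran passed (-0.17 to 0.16, median -0.01). Lysosomal genes held 3 calls among 29 (10.3%), all higher, beside 0.889% of all genes. Among them, *Psap*, the precursor of saposins, and *Gusb*, β-glucuronidase, rose by 0.22 and 0.49 (adjusted P-values 0.0173 and 0.0474). The call of *Gusb* held under 6 of 18 alternatives. The lysosomal list had a median of 0.07. Without WT replicate 1 it had 7 calls, all higher, and a median of 0.18, in a fit that called 354 of 18892 genes higher. Genes of antigen presentation had 1 call of 12 (8.33%), the class I gene *H2-D1* (0.46, adjusted P-value 0.00537), at a median of 0.28. None of 12 immediate early and heat shock genes (median 0.25) and none of 21 genes of cholesterol synthesis (median 0.05) passed; *Fosb* of the former was called higher without WT replicate 1. In glycolysis, *Ldhb* was called higher and *Gapdh*, whose sum with its copies did not differ, lower. Of 81 ribosomal protein genes 1 was called (1.23%), *Rpsa*, and of 91 genes of oxidative phosphorylation also 1 (1.10%), *Ndufa1*, with medians of 0.07 and 0.03. Both shares lay under the 1.60% of all genes.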

How the data were processed

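Poly(A) RNA of whole testes was sequenced in pairs, and the authors assigned the reads to mouse transcripts with kallisto (version 0.45 in the submitters' processing notes). They deposited an estimated count and a TPM value per transcript. The deposited estimated counts are not normalized between samples, and the deposited TPM values are scaled to a fixed total in each library. The transcript release and the strand setting are not given in the sources used here. Here, 95301 of 96626 transcripts (98.6%) were assigned to 32035 genes of GENCODE M21 (GRCm38), and values were summed per gene. The rounded counts of the 6 samples passed filterByExpr and TMM scaling, and edgeR 4.0.16 (R 4.3.3) tested them by quasi-likelihood, without covariates and with Benjamini-Hochberg adjustment over all genes tested. CPM values used TMM factors over the 9 samples. A gene was called at an adjusted P-value below 0.05. Replicates of a group differed by more than sampling noise. Near-identical genes were found with blastn 2.17.0 at 95% identity over at least 100 bases. The test was checked on simulated counts.

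The genes named were the importin α genes, the 6 per region and direction with the greatest log2 fold change among called genes whose groups did not overlap and reached a mean of 1 TPM at least once, up to 4 called members of each list by adjusted P-value, genes that the study measured or named, and their near-identical partners. Members, stretches and lists were chosen with earlier results of these data known, and genes outside this rule were added after their values were seen. The alternatives were DESeq2 1.42.0, other size factors and filters, length-scaled TPM counts, limma 3.58.1 on log2(TPM + 1) and log2(TPM + 0.1), all 9 samples in 1 fit, sums over near-identical genes, the replicate number as a block and each sample left out in turn. The replicate numbers of the labels did not pair the samples. Some genes that met the rule are not reported here.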

Additional observations from a re-analysis of the deposited data

How the results depend on the processing

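With 3 samples per group the number of called genes depended on single libraries. Leaving out 1 library gave 92 to 518 called genes in all, 7 to 42 on chromosome 4, 13 to 39 on chromosome 6 and 71 to 437 elsewhere. The 518 came without WT replicate 1, and 92, 113, 180, 135 and 145 without *Kpna6*-/- replicates 1, 2 and 3 and WT replicates 2 and 3, each with fewer samples in the fit. The log2 fold change of *Kpna6* then ranged from -0.38 to -0.06. DESeq2 called 477 genes, 47 of them on chromosome 4 and 389 outside chromosomes 4 and 6. Without a filter on low counts edgeR called 624, of which 51, 50 and 523 were on chromosome 4, on chromosome 6 and elsewhere. Length-scaled TPM counts gave 70, with 7, 9 and 54. limma called 33 on log2(TPM + 0.1), with 3, 5 and 25, and 32 on log2(TPM + 1), with 3, 4 and 25. These tables keep no depth, and the cause of the lower counts was not tested. Summing near-identical genes left 159 calls outside chromosomes 4 and 6. DESeq2 size factors (296), all 9 samples (262), library size only (275), the filter of the study's own tool (283) and sums over matches longer than a share of 0.5 of a transcript (264, an alternative chosen after seeing the data) stayed within 1.5 times of 299.

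The replicate number as a block gave 229 calls, 21, 22 and 186 by region, and a log2 fold change of -0.15 for *Kpna6*. Deviations of same-numbered samples had correlations of -0.0555, -0.000961 and -0.032, and the numbers were not treated as pairs.

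Directions turned in few of the named genes. With near-identical genes summed, *Zbtb8os* was at -0.24, and the cause was not tested. Under both ways of summing, *Gm13394* and *Gm7336* were at -0.01, *Gm12663* at 0.45 and *Gm7334* at 0.13. Under limma *Kpna2* was at -0.01 and *Kpna3* and *Kpna7* at -0.00. With 1 library left out, *Kpna2* (-0.01 to 0.05), *Kpna3* (-0.05 to 0.06), *Kpna7* (-0.02 to 0.19), *Prm1* (-0.03 to 0.15), *Prm2* (-0.01 to 0.09) and *Rfx2* (-0.01 to 0.06), none of them called, ran from below to above 0. Of the 52 called genes that met the naming rule, *Aard*, *Asb4*, *Cyp4f17*, *Gprc5a*, *Grin2b*, *Klrb1* and *Snrnp40* were called under all 18 alternatives. Other calls were less stable. Those of *Clstn3*, *Gusb* and *Cited4* held under 3, 6 and 8 of the 18, and those of *Clu*, *Vim*, *Tubb3* and *Hpca* under 10. *Hdac1* was not called by limma or with near-identical genes summed (-0.04).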

Other observations

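Neighbouring genes of chromosome 2 near 111 Mb were lower in *Kpna6*-/- testes, chosen after their values were seen. *Gm13941* was at 33.1, 37.4 and 33.6 CPM in WT and 16.4, 16.7 and 15 CPM in *Kpna6*-/- testes (log2 fold change -1.11, adjusted P-value 7.83e-06), and *Gm15130* at 31.7, 36.8 and 33.4 CPM and 14.2, 14.8 and 16.8 CPM (-1.16, adjusted P-value 1.45e-05). Next to them, *4930430A15Rik* was at 107, 110 and 100 CPM in WT and 71.5, 77.5 and 78 CPM in *Kpna6*-/- testes (-0.48, adjusted P-value 0.00051). The groups did not overlap in any of these genes, and the *Kpna6*ΔIBB/ΔIBB means of 26.8, 23.5 and 72.7 CPM were also under WT.

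Further single genes were higher. *Creg1*, a secreted glycoprotein of the endosome and lysosome, was at 50.1, 40.9 and 41.2 CPM in WT and 68.2, 73.7 and 64.6 CPM in *Kpna6*-/- testes (0.64, adjusted P-value 0.0013). *Wfdc1*, a secreted protein with a protease inhibitor domain, was at 9.11, 8.13 and 7.93 CPM in WT and 15.8, 13.9 and 14.5 CPM in *Kpna6*-/- testes (0.81, adjusted P-value 0.000716). Both were chosen after their values were seen.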
